A study of Rattus norvegicus with 5 samples.

Results

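The 56 genes described here run the cell cycle and DNA replication: 14 genes of S phase, 20 of mitosis, 12 cyclins and cyclin-dependent kinases, 7 inhibitors of those kinases, and 3 genes of the E2F and pocket protein switch. They were followed across the 4 zones of rat mandibular condylar cartilage (MCC) and in femoral condylar cartilage (FCC). A gene was used where a probe set carried its symbol and no other. By that rule 54 of the 56 had values, from 75 probe sets, out of 14217 genes measured on the array in all. Rrm2 had only probe sets shared with Rrm2l1, and Tpx2 was not analysed here.

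The study asked how gene expression changes across the MCC, a fibrocartilage that both bears load at the jaw joint and serves as a growth site. Wild type Sprague-Dawley male rat tissue, 5 weeks old, gave 5 samples of 1 array each: the fibrous zone (FZ), the proliferative zone (PZ), the mature zone (MZ) and the hypertrophic zone (HZ) of the MCC, and FCC, for which chondrocytes of the middle and deep zones were captured. Cells were cut by laser from 7 µm frozen sections, the lysates of 30 sections were pooled into a sample (more for FZ, per the methods), and the RNA was amplified before labelling. The number of animals was not given in the sources used here. FZ and PZ are called superficial here, and MZ and HZ deep. With 1 array per group there is no spread between animals and no test, so no p-value is given. A zone captured this way can also hold neighbouring cells, and fewer dividing cells cannot be told apart from less RNA per dividing cell.

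The cell cycle is driven by cyclin-dependent kinases, which act only when bound to a cyclin. D-type cyclins with Cdk4 or Cdk6 phosphorylate the retinoblastoma protein and its relatives, the pocket proteins, and this frees E2F factors to switch on the genes for DNA replication. Genes for mitosis are switched on later through another promoter element, the cell cycle genes homology region (CHR), often beside CCAAT boxes that bind NF-Y. In growing cartilage the proliferative layer is where chondrocytes or their progenitors divide, and cells usually leave the cycle as they mature towards hypertrophy, with Cdkn1c (p57) among the inhibitors tied to that exit.

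Promoters of 6 members are shown because they carry the 2 kinds of element that separate S phase from mitosis genes. They are RefSeq sequences of the GRCr8 assembly, from 250 bases before to 50 bases after the annotated start, written 5′ to 3′ on the gene's strand. Mcm5 (chr19:13488563-13488862, + strand) and Mcm6 (chr13:42404303-42404602, − strand) encode subunits of the MCM helicase that unwinds DNA at the replication fork. Plk1 (chr1:186147408-186147707, + strand), Cdc20 (chr5:137255750-137256049, − strand) and Cenpf (chr13:103760837-103761136, − strand) act in mitosis. Cdk1 (chr20:19265043-19265342, + strand) is the kinase that drives entry into it. Capitals mark the CHR core, searched as TTTGAA, the NF-Y box, searched as the letters CCAAT, and the E2F site, searched as TTTCCCGC, TTTGGCGC or TTTCGCGC, each on both strands, and sites that overlap run together in capitals.
Mcm5: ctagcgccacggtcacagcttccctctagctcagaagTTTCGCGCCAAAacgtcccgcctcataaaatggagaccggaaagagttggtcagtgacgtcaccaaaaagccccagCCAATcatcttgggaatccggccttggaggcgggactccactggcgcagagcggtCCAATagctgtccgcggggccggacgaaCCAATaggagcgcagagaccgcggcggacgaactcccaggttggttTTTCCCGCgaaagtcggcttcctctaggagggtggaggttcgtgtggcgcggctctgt
Mcm6: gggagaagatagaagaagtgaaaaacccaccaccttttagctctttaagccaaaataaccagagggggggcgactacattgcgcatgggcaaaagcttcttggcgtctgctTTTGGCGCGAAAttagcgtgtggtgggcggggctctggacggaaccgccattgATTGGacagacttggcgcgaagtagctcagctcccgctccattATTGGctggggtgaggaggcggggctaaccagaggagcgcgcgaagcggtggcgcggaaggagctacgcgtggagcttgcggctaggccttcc
Plk1: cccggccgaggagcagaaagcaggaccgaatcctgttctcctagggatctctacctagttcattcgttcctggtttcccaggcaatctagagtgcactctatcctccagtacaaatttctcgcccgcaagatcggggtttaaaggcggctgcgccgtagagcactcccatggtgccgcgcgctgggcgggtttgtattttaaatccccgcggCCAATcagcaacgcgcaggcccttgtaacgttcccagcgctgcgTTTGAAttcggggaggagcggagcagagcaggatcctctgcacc
Cdc20: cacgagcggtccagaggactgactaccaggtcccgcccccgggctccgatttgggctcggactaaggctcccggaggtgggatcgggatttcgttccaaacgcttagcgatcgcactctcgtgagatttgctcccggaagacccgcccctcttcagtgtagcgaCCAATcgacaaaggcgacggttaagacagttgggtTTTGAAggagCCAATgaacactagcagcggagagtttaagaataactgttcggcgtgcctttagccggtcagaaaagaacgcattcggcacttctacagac
Cenpf: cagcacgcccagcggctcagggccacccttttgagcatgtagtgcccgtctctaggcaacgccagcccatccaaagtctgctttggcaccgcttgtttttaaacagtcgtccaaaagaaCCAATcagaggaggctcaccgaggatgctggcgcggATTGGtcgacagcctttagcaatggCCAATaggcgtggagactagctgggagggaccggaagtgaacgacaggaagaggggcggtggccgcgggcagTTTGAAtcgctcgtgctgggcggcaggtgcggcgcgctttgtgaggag
Cdk1: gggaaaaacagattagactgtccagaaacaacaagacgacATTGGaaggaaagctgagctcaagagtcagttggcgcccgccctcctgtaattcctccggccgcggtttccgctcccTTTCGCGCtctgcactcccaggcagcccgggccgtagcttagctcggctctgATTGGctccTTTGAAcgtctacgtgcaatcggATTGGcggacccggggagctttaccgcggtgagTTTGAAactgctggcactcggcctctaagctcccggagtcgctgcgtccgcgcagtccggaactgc
Mcm5 held 3 E2F matches and 3 CCAAT boxes with no CHR core, and Mcm6 held 2 E2F matches and 2 CCAAT boxes with no CHR core. In Mcm5 2 of the E2F matches, and in Mcm6 both, overlap on opposite strands within 1 run of capitals. Such a run may be 1 site, so these are counts of matches. Plk1 held 1 CHR core and 1 CCAAT box, Cdc20 1 CHR core and 2 CCAAT boxes, and Cenpf 1 CHR core and 3 CCAAT boxes, all without an E2F site. Cdk1 held both kinds, with 2 CHR cores, 3 CCAAT boxes and 1 E2F site.

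Among the 44 members with a promoter in the RefSeq table, the 2 elements divided by function. E2F sites stood in 6 of 12 S phase promoters (50.0%) and in 0 of 17 mitosis promoters, against 3.13% of the promoters of all 11733 array genes with one. CHR cores stood in 12 of 17 mitosis promoters (70.6%) and in 1 of 12 S phase promoters (8.33%, Mcm2), against 13.3% of array genes. CCAAT boxes were common in both, at 76.5% for mitosis and 58.3% for S phase, against 38.6%. A CHR core together with a CCAAT box stood in 10 of 17 mitosis promoters (58.8%), against 5.40% of array genes. Longer lists of cell cycle genes that hold no member had E2F sites in 18 of 38 other S phase promoters (47.4%) and in 2 of 51 other mitosis promoters (3.92%), and CHR cores in 18.4% and 58.8% of them. A match is a string of letters and not a measured site. The promoters of Mcm4, Aurkb, Ube2c, Cdk6, Ccna2, Ccnd1, Ccnd2, Ccne2, Cdkn1c and E2f1 were not used here.

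**Figure D1:**
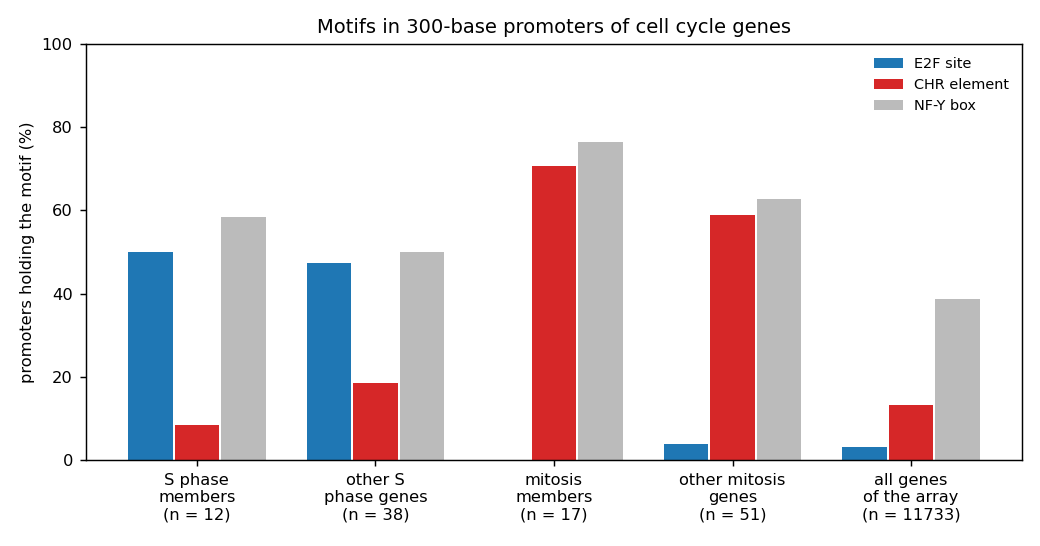
Share of 300-base promoters (%, bars from 0) that hold an E2F site, a CHR core or a CCAAT (NF-Y) box on either strand, for S phase and mitosis members, for longer lists of each kind without the members, and for all array genes. E2F sites stand in 50.0% of the S phase and none of the mitosis members, and CHR cores in 8.33% and 70.6%.

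The deposited values are log2 intensities set against each probe set's median over the 5 arrays, so 0.00 is the middle array and a value says nothing of how abundant a gene is. Of the 75 member probe sets, 18 (24.0%) stood at exactly 0 on more than 1 array, and those arrays have no order for that probe set. Values of a gene's probe sets were averaged, and a difference of at least 1 on the log2 scale, a 2-fold change, was counted. The only error that could be measured was the SD between probe sets of 1 gene, whose median over the 4525 genes with several lay between 0.12 for MZ minus HZ and 0.36 for PZ minus FCC. For the 15 members with several probe sets these medians were 0.10 to 0.63.

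Most of the cell cycle genes were lowest in femoral cartilage. FCC was the lowest array for 41 of the 54 members, against 28.8% of all genes. HZ was the highest array for 24 members and FZ for 18, against 18.2% and 16.8% of all genes. With RNA controls added to each hybridization set equal the order turned, with 22 for HZ and 26 for FZ. Shares of all genes under that setting were not counted. PZ, the zone named for proliferation, was the highest array for 6 members and the lowest for 9, against 24.9% and 24.8% of all genes.

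Each zone therefore held more members above FCC than below it. In FZ 26 members were at least 1 higher than in FCC and 1 was lower, where 5.69% of all genes were higher and 4.21% lower. PZ had 19 members higher and 2 lower (Cdc25b and Cdk4), against 4.65% and 7.49% of all genes. In MZ the counts were 25 and 0 (6.98% and 4.74% of all genes), and in HZ they were 33 and 1 (8.09% and 5.98%). The median member difference from FCC was 0.89 in FZ and 0.67 in PZ, with 0.97 in MZ and 1.17 in HZ, whereas the median over all genes was 0.00 to 0.03. For HZ minus FCC the members nearest the threshold were Rbl1, just inside at 1.004, and Mcm7, just outside at 0.97.

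**Figure D2:**
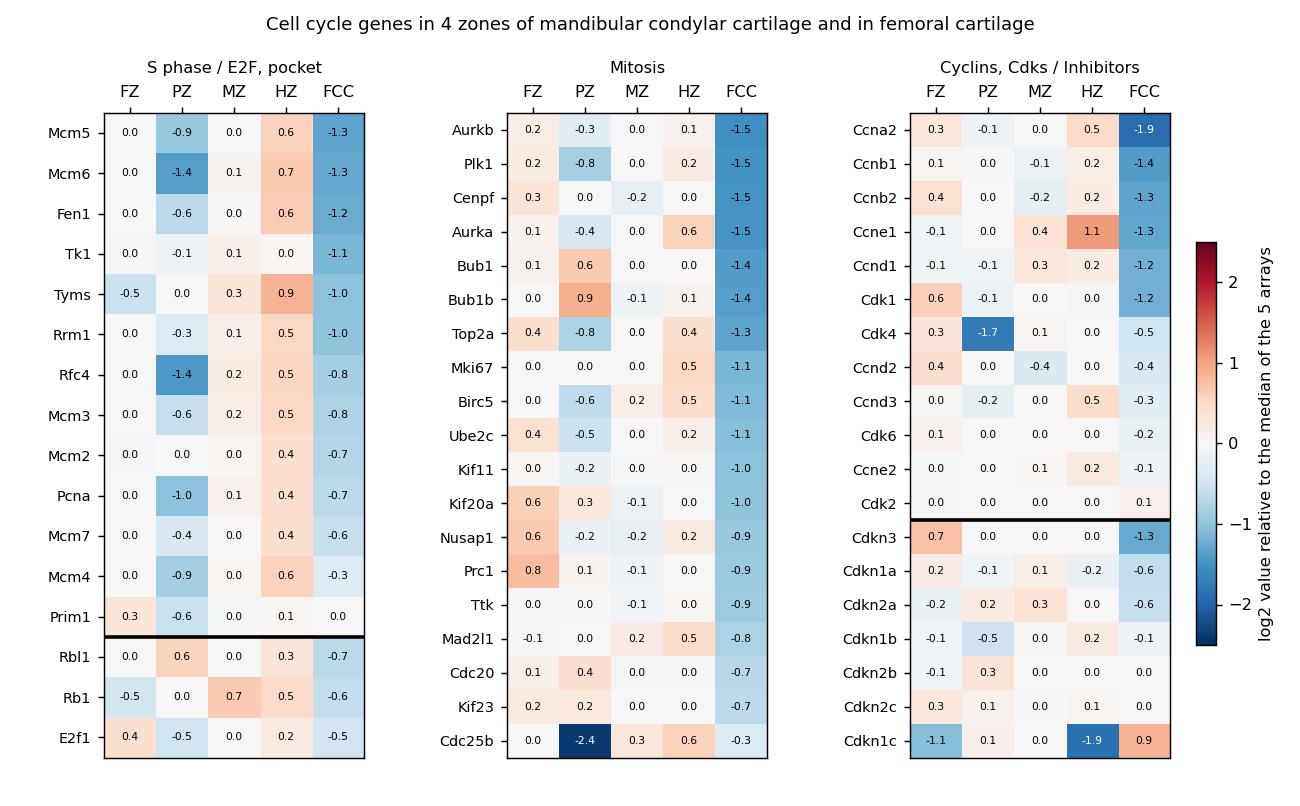
log2 value of every member on each array relative to the median of the 5 arrays, as colour and number, with FZ, PZ, MZ and HZ of the mandibular cartilage left of FCC, 1 array each, and a black line between groups of genes. The FCC column is the lowest for 41 of 54 genes, the S phase genes are highest in HZ and mostly low in PZ, and Cdkn1c runs the other way with 0.86 in FCC and −1.87 in HZ.

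The arrays differed in ways that touch these counts. The 18 hybridization control probe sets, which report RNA added in equal amounts to each hybridization, averaged −0.15 in FZ and 0.44 in PZ, with −0.02 in MZ and −0.03 in HZ, against 0.50 in FCC. Setting them equal would add 0.65 to every FZ minus FCC difference, 0.06 to PZ minus FCC, 0.52 to MZ minus FCC and 0.52 to HZ minus FCC, and would add −0.50 to every PZ minus other MCC zones difference. Counts of members above FCC by at least 1 would then be 42 in FZ and 43 in MZ. The same constants move every gene, so the shares of all genes given above do not apply to these counts. Beta-actin probe sets gave a 5′ minus 3′ difference of 1.24 in FCC, against −0.24 to 0.14 in the zones, and GAPDH gave 1.36 in PZ, against −0.21 to 0.27 elsewhere. Their part in the low values of FCC and PZ was not tested.

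The S phase genes were highest in the hypertrophic zone and low in the proliferative zone and in FCC. HZ was the highest array for 11 of the 13, against 18.2% of all genes. FCC was the lowest for 8 and PZ for the other 5, against 28.8% and 24.8% of all genes. Their median value was 0.00 in FZ and −0.58 in PZ, with 0.09 in MZ and 0.51 in HZ, against −0.84 in FCC. All 13 were above FCC in HZ, 10 of them by at least 1, where 8.09% of all genes were at least 1 higher. Their median was 1.28, with a range of 0.05 for Prim1 to 1.94 for Mcm6. In PZ 8 of the 13 were above FCC and 5 below it, with a median of 0.20, where 7258 of all 14217 genes were above FCC.

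Mcm6, of the MCM helicase, stood at 0.00 in FZ and −1.38 in PZ, with 0.09 in MZ and 0.66 in HZ, against −1.28 in FCC. Its helicase partner Mcm5 stood at 0.01 in FZ and −0.95 in PZ, with 0.00 in MZ and 0.57 in HZ, against −1.32 in FCC. Both were low in PZ and in FCC and highest in HZ, where the 6 MCM subunits ran from 0.40 for Mcm7 to 0.66 for Mcm6. The subunits did not drop equally in PZ, where Mcm2 stood at 0.00, Mcm7 at −0.41, Mcm3 at −0.58 and Mcm4 at −0.86.

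The proteins that load and follow the polymerase had a similar profile. Rfc4, of the clamp loader, stood at 0.00 in FZ and −1.44 in PZ, with 0.18 in MZ and 0.54 in HZ, against −0.84 in FCC. Pcna, the sliding clamp, stood at 0.00 in FZ and −1.03 in PZ, with 0.11 in MZ and 0.42 in HZ, against −0.67 in FCC. Fen1, the nuclease that trims Okazaki fragments, stood at 0.00 in FZ and −0.65 in PZ, with 0.03 in MZ and 0.63 in HZ, against −1.24 in FCC. Rfc4 and Pcna were thus lower in PZ than in FCC, and Fen1 was lowest in FCC. Prim1, the primase subunit that starts each new strand, was an exception in HZ and FCC, where its values were 0.05 and 0.00.

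Enzymes that make deoxynucleotides were low in FCC and less so in PZ. Tyms, thymidylate synthase, stood at −0.54 in FZ and 0.00 in PZ, with 0.29 in MZ and 0.86 in HZ, against −1.03 in FCC. PZ was thus 0.54 above FZ for Tyms, and Mcm2, at 0.00 in PZ and −0.03 in FZ, was the only other S phase gene for which PZ was higher. Rrm1, the large subunit of ribonucleotide reductase, was 1.52 higher in HZ than in FCC. Tk1, thymidine kinase, had a mean of 0.05 in HZ and −1.14 in FCC, but its 3 probe sets split in PZ at −0.70, −0.30 and 0.62, so its place in PZ is not settled.

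The mitosis genes were nearly all lowest in FCC and divided between the zones for their highest values. FCC was the lowest array for 18 of the 19, against 28.8% of all genes, and Cdc25b was lowest in PZ. The highest array was FZ for 8, HZ for 7, PZ for 4 and MZ for none, against 16.8%, 18.2%, 24.9% and 14.3% of all genes. With the hybridization controls set equal it was FZ for 13, HZ for 5 and PZ for 1, and shares of all genes were not counted there. Their median value was 0.14 in FZ and 0.00 in PZ, with 0.00 in MZ and 0.11 in HZ, against −1.06 in FCC. Relative to FCC the median was 1.43 in FZ and 0.91 in PZ, with 1.06 in MZ and 1.25 in HZ. At least 1 higher than FCC were 14 genes in both FZ and HZ, 9 in PZ and 10 in MZ. The shares of all genes were 5.69% in FZ, 8.09% in HZ, 4.65% in PZ and 6.98% in MZ.

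PZ was the highest array for Bub1b, Bub1, Cdc20 and Kif23, 21.1% of the mitosis genes, against 24.9% of all genes. Kif23 had probe sets at 0.03 and 0.46 in PZ and at 0.52 and −0.08 in FZ, so its highest array is not settled. Bub1b and Bub1 are kinases of the spindle checkpoint, which holds cells until chromosomes are attached. Bub1b stood at 0.00 in FZ and 0.89 in PZ, with −0.12 in MZ and 0.11 in HZ, against −1.38 in FCC. Bub1 stood at 0.10 in FZ and 0.65 in PZ, with 0.00 in MZ and 0.00 in HZ, against −1.39 in FCC. Cdc20, the activator of the anaphase-promoting complex that the checkpoint restrains, averaged 0.44 in PZ over 5 probe sets that ran from 0.15 to 0.67 there. The probe set at 0.15 in PZ was higher in FZ, at 0.43. Mad2l1, also of the checkpoint, was highest in HZ at 0.47, and Ttk, its upstream kinase, had 2 probe sets that disagreed in FCC at −1.63 and −0.13.

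Aurora kinases, survivin and Plk1 were highest in FZ or HZ. Aurka, which matures the spindle poles, stood at 0.08 in FZ and −0.39 in PZ, with 0.00 in MZ and 0.55 in HZ, against −1.47 in FCC. Aurkb, the kinase of the chromosomal passenger complex, stood at 0.17 in FZ and −0.28 in PZ, with 0.00 in MZ and 0.11 in HZ, against −1.54 in FCC. Birc5 (survivin), of the same complex, stood at 0.00 in FZ and −0.63 in PZ, with 0.18 in MZ and 0.46 in HZ, against −1.10 in FCC. All 3 were lower in PZ than in the other zones and far lower in FCC. Plk1, the polo-like kinase, stood at 0.19 in FZ and −0.83 in PZ, with 0.00 in MZ and 0.20 in HZ, against −1.50 in FCC.

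Prc1, Kif20a, Nusap1 and Cenpf had their highest values in FZ. Prc1, which bundles central spindle microtubules, stood at 0.77 in FZ and 0.09 in PZ, with −0.13 in MZ and 0.00 in HZ, against −0.94 in FCC. Kif20a, a kinesin needed for cytokinesis, stood at 0.60 in FZ and 0.26 in PZ, with −0.14 in MZ and 0.00 in HZ, against −1.01 in FCC. In both the 2 superficial zones were above the 2 deep ones, the reverse of the S phase medians. Nusap1, a spindle-associated protein, stood at 0.65 in FZ and −0.17 in PZ, with −0.21 in MZ and 0.23 in HZ, against −0.94 in FCC. Cenpf, a kinetochore protein, stood at 0.33 in FZ and 0.01 in PZ, with −0.21 in MZ and 0.00 in HZ, against −1.48 in FCC. Kif23, which works with the furrow proteins, had probe sets at −1.34 and 0.03 in FCC, so its low mean there rests on 1 of them.

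Mki67, the proliferation marker Ki-67, stood at 0.00 in FZ, 0.00 in PZ and 0.00 in MZ and at 0.51 in HZ, against −1.14 in FCC. Top2a, the topoisomerase that untangles sister chromatids, stood at 0.44 in FZ and −0.80 in PZ, with 0.00 in MZ and 0.40 in HZ, against −1.33 in FCC. The 2 probe sets of Top2a gave −0.86 and −0.74 in PZ and −1.21 and −1.44 in FCC, so its low places were shared by both. Cdc25b, the phosphatase that activates Cdk1, stood at 0.00 in FZ and −2.40 in PZ, with 0.28 in MZ and 0.57 in HZ, against −0.35 in FCC. It was the member with the widest range over the arrays, and its PZ value came from 1 probe set.

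**Figure D3:**
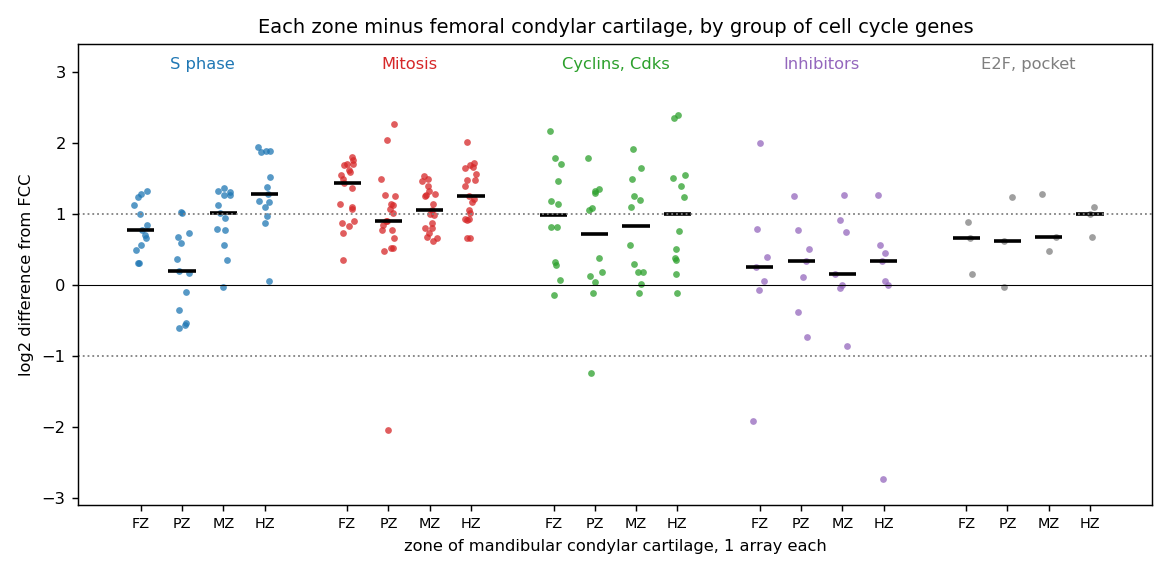
log2 difference of each member between a zone (FZ, PZ, MZ or HZ, 1 array each) and FCC, by group of genes, with the median as a black bar and dotted lines at a difference of 1 in each direction. S phase medians run from 0.20 in PZ to 1.28 in HZ, whereas mitosis medians stay between 0.91 and 1.43.

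Cyclins A and B and cyclin E1 were far lower in FCC than in any zone. Ccna2, cyclin A of S phase and early mitosis, stood at 0.26 in FZ and −0.12 in PZ, with 0.00 in MZ and 0.48 in HZ, against −1.91 in FCC. Ccne1, cyclin E that opens S phase, stood at −0.11 in FZ and 0.00 in PZ, with 0.35 in MZ and 1.06 in HZ, against −1.29 in FCC. These were the 2 largest HZ minus FCC differences of all members, at 2.40 and 2.35. Ccnb2, a mitotic cyclin B, stood at 0.39 in FZ and 0.00 in PZ, with −0.22 in MZ and 0.19 in HZ, against −1.32 in FCC. Ccnb1, the other B cyclin, was above FCC by 1.46 in FZ and 1.35 in PZ, with 1.25 in MZ and 1.55 in HZ. Ccne2, by contrast, averaged 0.08 to 0.35 above FCC. Its probe sets disagreed, with 0.26 to 0.71 relative to FCC for the first and −0.11 to 0.01 for the other.

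The D-type cyclins, which carry growth signals to Cdk4 and Cdk6, did not move together. Ccnd1 averaged −0.06 in FZ and −0.12 in PZ, with 0.28 in MZ and 0.19 in HZ, against −1.21 in FCC. Of its 3 probe sets 2 stood at −1.68 and −1.65 in FCC and the other at −0.29. Ccnd2 stood at 0.45 in FZ and 0.01 in PZ, with −0.37 in MZ and 0.00 in HZ, against −0.38 in FCC. Ccnd3 stood at 0.04 in FZ and −0.25 in PZ, with 0.00 in MZ and 0.47 in HZ, against −0.29 in FCC. So the highest array was MZ for Ccnd1, FZ for Ccnd2 and HZ for Ccnd3.

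Of the kinases, Cdk1 followed the mitosis genes. Cdk1 stood at 0.59 in FZ and −0.14 in PZ, with 0.00 in MZ and 0.04 in HZ, against −1.20 in FCC. Cdk4, the partner of the D-type cyclins, stood at 0.31 in FZ and −1.75 in PZ, with 0.06 in MZ and 0.00 in HZ, against −0.50 in FCC. Cdk4 was low in PZ by 1 probe set, beyond its value in FCC. Cdk6 and Cdk2 differed from FCC by at most 0.28 in any zone.

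The inhibitors showed no common direction, and their median relative to FCC was 0.26 in FZ and 0.34 in PZ, with 0.16 in MZ and 0.34 in HZ. Cdkn1c (p57) stood at −1.07 in FZ and 0.12 in PZ, with 0.00 in MZ and −1.87 in HZ, against 0.86 in FCC. By its 1 probe set it was highest in FCC and lowest in HZ, opposite to the S phase genes. Cdkn1c was the only member at least 1 lower than FCC in FZ and in HZ. Cdkn3, a phosphatase whose level rises with cell division although it is listed with inhibitors, stood at 0.73 in FZ and −0.01 in PZ, with 0.00 in MZ and 0.00 in HZ, against −1.27 in FCC. By gene means, Cdkn3 was the only one of the 7 at least 1 higher than FCC in any zone, and was so in all 4 zones.

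By the mean of their probe sets, the other inhibitors stayed within 1 of FCC. By itself, 1 probe set of Cdkn1a was 1.31 above FCC in FZ and 1.23 in MZ, and 1 of Cdkn1b was 1.03 below FCC in PZ. Cdkn1a (p21) averaged 0.18 in FZ and −0.10 in PZ, with 0.14 in MZ and −0.17 in HZ, against −0.61 in FCC, from 2 probe sets that stood at 0.68 and −0.88 in PZ. Cdkn1b (p27) averaged −0.07 in FZ and −0.52 in PZ, with 0.02 in MZ and 0.21 in HZ, against −0.13 in FCC, with probe sets at 0.00 and −1.03 in PZ. In both genes the gap between the probe sets in PZ was larger than the range of their mean over the 5 arrays. Of the inhibitors specific to Cdk4 and Cdk6, Cdkn2a stood at −0.17 in FZ and 0.20 in PZ, with 0.35 in MZ and 0.00 in HZ, against −0.57 in FCC. Cdkn2b stood at −0.08 in FZ, 0.34 in PZ and 0.00 in MZ and HZ, against 0.00 in FCC. Cdkn2c averaged 0.27 in FZ and 0.11 in PZ, with −0.03 in MZ and 0.07 in HZ, against 0.01 in FCC.

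The 3 genes of the switch itself were all low in FCC and were highest in different zones. Rb1 was at least 1 higher than FCC in MZ and HZ, and Rbl1 in PZ and HZ. E2f1, an activating E2F, was highest in FZ at 0.40 and lowest in PZ at −0.50, with −0.48 in FCC. Rb1, the retinoblastoma protein, was higher in the 2 deep zones, at 0.66 in MZ and 0.48 in HZ, against −0.62 in FCC. Rbl1 (p107), its relative, was highest in PZ at 0.56, against −0.68 in FCC.

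Set against the mean of the other 3 MCC zones, PZ had 8 members at least 1 lower and 1 at least 1 higher, where 6.63% of all genes were lower and 1.47% higher. The 8 were Cdc25b at −2.68, Cdk4 at −1.87, Rfc4 at −1.68, Mcm6 at −1.63, Pcna at −1.21, Mcm5 at −1.14, Top2a at −1.08 and Mcm4 at −1.06, and the one higher was Cdkn1c at 1.10. All 13 S phase genes were below the mean of the other zones in PZ, where 7098 of all 14217 genes were below it. Their median was −0.81, against −0.19 for mitosis and 0.00 for all genes. Mcm2 at −0.15, Tk1 at −0.18 and Tyms at −0.21 lay within 0.30, the median SD between probe sets for this difference. For Tk1 a probe set was 0.62 above the other zones. The member just outside the threshold was Plk1, 0.96 lower. With the hybridization controls set equal, 19 members were at least 1 lower and 0 higher, but all genes shift too and were not counted at that setting. In the deposited values, leaving out FZ, MZ or HZ gave 6 to 9 members lower, and without HZ 0 were higher. Of the 8, only Top2a had more than 1 probe set, and Cdkn1c had 1.

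**Figure D4:**
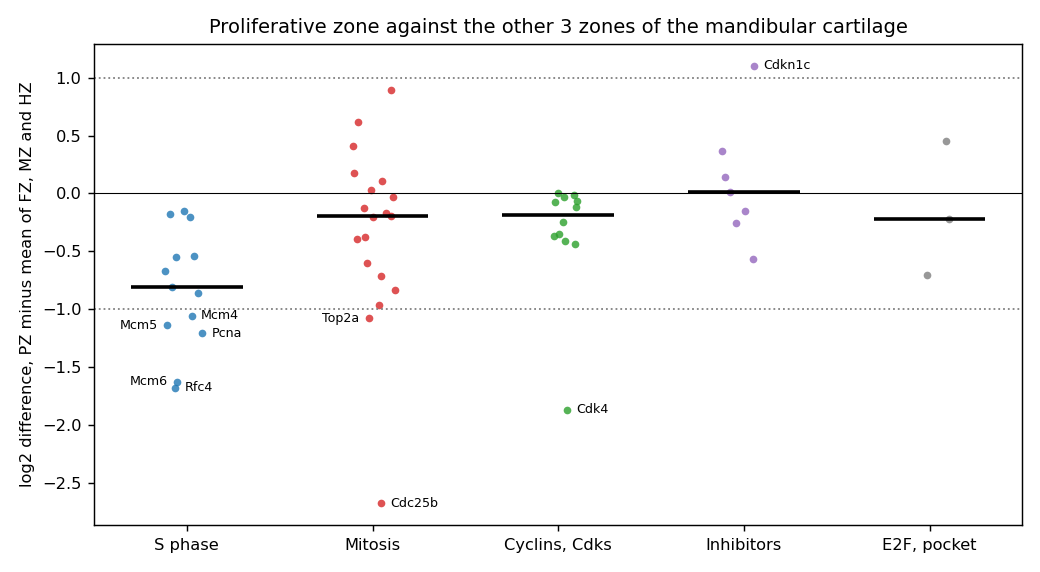
log2 difference of each member between PZ and the mean of FZ, MZ and HZ, by group of genes, with the median as a black bar, dotted lines at 1 in each direction and names for members past them. All 13 S phase genes lie below 0, and Cdc25b is the lowest at −2.68.

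The contrast was wider against HZ, the zone at the other end of maturation. PZ minus HZ had 13 members at least 1 lower and 1 higher (Cdkn1c, 1.996), where 8.41% of all genes were lower and 3.37% higher. All 13 S phase genes were lower in PZ than in HZ, 7 of them by at least 1, with a median of −1.09. Of all 14217 genes, 6713 were lower. Tk1 was lower by 0.17 on average, but a probe set of it was 0.62 higher. The mitosis genes had a median of −0.40, with 4 at least 1 lower and 7 above 0. Superficial minus deep, the mean of FZ and PZ minus the mean of MZ and HZ, had 0 members at least 1 higher and 3 at least 1 lower, Cdc25b at −1.62, Rfc4 at −1.08 and Mcm6 at −1.07, against 2.24% and 3.78% of all genes. Every S phase gene was again below 0 in that difference (median −0.65), as were 7179 of all 14217 genes. Prim1 at −0.14 and Tk1 at −0.16 lay within 0.20, the median SD between probe sets. The mitosis genes split 9 above and 10 below (median −0.07). Without PZ, so that FZ stood for the superficial side, 2 other members were at least 1 lower (Tyms and Rb1), and the medians were −0.30 for S phase and 0.10 for mitosis. Without FZ the counts were 7 lower and 1 higher, without MZ 6 and 1, and without HZ 1 and 0.

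MZ and HZ differed little, with 1 member at least 1 higher in MZ (Cdkn1c, 1.87) and 0 lower, against 0.907% and 0.204% of all genes. The S phase genes were lower in MZ than in HZ for 12 of 13, with a median of −0.38, where 5676 of all 14217 genes were lower. Members that hold an E2F site (9 genes) had a PZ minus HZ median of −0.81, and members with a CHR core and no E2F site (15 genes) had a median of −0.02. Relative to FCC the same genes had HZ medians of 1.24 and 1.27. The 20 members with neither element had a PZ minus HZ median of −0.67.

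Markers of blood cells, whose precursors also divide, were highest in the deep zones. The erythroid markers (17 of 23 listed had values) had medians of −0.52 in FZ and −0.51 in PZ, with 0.89 in MZ and 1.13 in HZ, against 0.00 in FCC, and their values in HZ ran from 0.05 to 3.13. Alas2, which starts haem synthesis in red cell precursors, stood at 0.94 in HZ and 0.00 in FCC. The 18 pan-leukocyte markers had medians of 0.00 in FZ and −0.50 in PZ, with 0.71 in MZ and 1.20 in HZ, against −0.79 in FCC. Of them 15 were at least 1 higher in HZ than in FCC, against 8.09% of all genes, and their values in HZ ran from −0.95 to 1.51. The S phase medians had the same order over the arrays as the leukocyte medians, with HZ highest, then MZ, FZ, PZ and FCC. Osteoclast markers had that order too, with medians of 0.79 in HZ, 0.46 in MZ, 0.00 in FZ and −0.37 in PZ, against −1.05 in FCC. All 6 with values were highest in HZ, against 18.2% of all genes, though Tnfrsf11a stood at 0.05 in HZ and 0.04 in FCC. Of 7 neutrophil markers with values (13 listed) 6 were lowest in PZ, against 24.8% of all genes, though Csf3r stood at −0.03 in both PZ and FZ. The 9 endothelial markers had medians of 0.76 in MZ and 0.60 in HZ, with −0.40 in PZ. Megakaryocyte and platelet markers (10 genes) were highest in MZ, with a median of 1.21, and lowest in PZ, with −0.35. The part of these cells in the HZ values of S phase genes was not tested. For FZ minus FCC the median was 1.43 for the mitosis genes, −0.58 for erythroid, 0.79 for leukocyte and 1.05 for osteoclast markers. The part of these cells in the FZ values was not tested either.

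**Figure D5:**
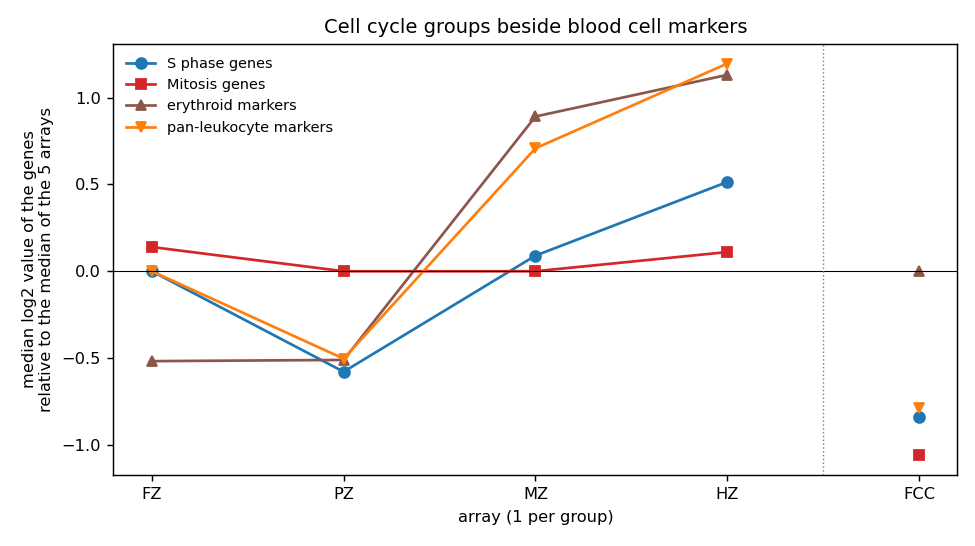
Median log2 value, relative to the median of the 5 arrays, of the S phase genes (n = 13), mitosis genes (n = 19), erythroid markers (n = 17) and pan-leukocyte markers (n = 18) on each array, with FCC set apart at the right. S phase and both marker lists are highest in HZ and low in PZ, whereas the mitosis median stays between 0.00 and 0.14 in all 4 zones and is −1.06 in FCC.

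Markers of the labelled tissues were checked on the same arrays. Of 19 hyaline cartilage genes, 16 were highest in FCC, against 24.8% of all genes. The medians of the 19 were −1.32 in FZ and 0.00 in PZ, with 0.23 in MZ and −0.89 in HZ, against 1.67 in FCC. Of 11 chondrocyte hypertrophy markers, 6 were highest in MZ, 3 in HZ and 2 in FCC, against 14.3%, 18.2% and 24.8% of all genes. Their medians were −0.02 in FZ and −0.27 in PZ, with 0.62 in MZ and 0.37 in HZ, against −0.50 in FCC. Among them Col10a1, the collagen of hypertrophic chondrocytes, stood at −2.73 in FZ and −1.61 in PZ, with 0.62 in MZ and 0.37 in HZ, against 0.00 in FCC. Col10a1 was thus higher in the 2 deep zones, but not higher in HZ than in MZ. Tendon and fibrous tissue genes had medians of 1.04 in FZ and 0.35 in PZ.

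Further genes of the same processes, listed apart from the members, were counted in the same way. Of 42 other S phase genes, 29 were highest in HZ and 24 lowest in FCC, against 18.2% and 28.8% of all genes. In HZ 14 of the 42 were at least 1 higher than in FCC and 0 lower, against 8.09% and 5.98%, at a median of 0.75. Cdt1, which licenses replication origins and is named after its values were seen, led them at 2.64. In PZ, Pold2, a subunit of DNA polymerase delta, was 1.42 below the other zones, Asf1b, a histone chaperone, 1.29 below them, and Dnmt1, which copies DNA methylation onto new strands, 1.12 below them. They were the only 3 of the 42 at least 1 lower there, against 6.63% of all genes. The 42 had a median of −0.16, and 10 were above 0, with Prim2 highest at 0.36. Of 60 other mitosis genes, 27 were highest in FZ and 50 lowest in FCC, against 16.8% and 28.8% of all genes. At least 1 higher than FCC were 36 in FZ and 31 in HZ, against 5.69% and 8.09% of all genes. Dlgap5, a spindle protein also picked out by its values, was 2.42 lower in HZ than in FCC, and 3 of the 60 were below FCC there. Kifc1 and Cenpe, a pair of kinesins, were 1.91 and 1.56 lower in PZ than in the other zones, whereas the kinetochore protein Knl1 was 0.88 higher.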

How the data were processed

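Each of the 5 samples was 1 hybridization of amplified, biotin-labelled RNA to an Affymetrix rat genome array. The authors summarized probes and normalized arrays (MAS5 and RMA in the submitters' processing notes, with quantile normalization in the methods) and deposited log2 values baselined to each probe set's median over the 5 arrays, which was 0 for all 31099 rows. Array number limits the precision. For the probe sets, the genome build was not given in the sources used here.

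The 57 control probe sets were left out. Of the other 31042, 20826 had 1 gene symbol in the platform annotation, 436 had several and 9780 were not listed. Probe sets of a gene were averaged, which gave 14217 genes. Differences between arrays were computed in Python 3.11.15 (pandas 2.3.3, numpy 2.4.6), plots were drawn with matplotlib 3.10.9, and the scripts were tested on simulated data. No filter on dim probe sets was applied. Alternatives were array scaling (equal medians, equal hybridization controls), the probe set with the largest SD, each probe set by itself, a log2 difference of 2 (4-fold) and, chosen after seeing the data, leaving out each zone from a mean.

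Values on every array are given for the 25 members with the largest range, all inhibitors and all D-type cyclins. Of the longer lists, only some of the genes furthest from 0 are named, and Cdt1 and Dlgap5 were picked after their values were seen. The members and lists were chosen with earlier results of these data known. Quantitative PCR was not analysed here.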

Additional observations from a re-analysis of the deposited data

How the results depend on the processing

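Setting the hybridization controls equal moved 6 counts by over 1.5 times. Members at least 1 higher than FCC became 42 in FZ and 43 in MZ, members lower in PZ than the other MCC zones became 19 and members higher there 0, members lower in PZ than in HZ became 23, and members highest in PZ became 1. Under the same setting 44 members were higher in HZ than in FCC, 26 were highest in FZ and 22 in HZ. None of these counts has a share of all genes beside it, and the same constants would move that share as well. With a log2 difference of 2 in place of 1, members higher than FCC numbered 2 of 54 in both FZ and PZ, 0 in MZ and 3 in HZ. Of all 14217 genes, HZ had 215 that much higher than FCC, MZ 158, FZ 119 and PZ 85. Members lower than FCC numbered 0 in FZ and 1 in PZ, against 212 and 251 of all genes. At that size PZ had 0 members above and 1 below the other MCC zones, against 25 and 73 of all genes. It had 0 above and 2 below HZ, against 115 and 152. Superficial minus deep then had 0 lower and MZ minus HZ 0 higher, against 39 and 34 of all genes. The probe set with the largest SD moved no count by over 1.5 times, and equal array medians could change nothing, since all 5 medians were 0 as deposited. Equal hybridization controls add a constant to every gene's difference, group medians included. Single probe sets moved 120 differences of named genes and left 168, so members with several probe sets carry an error that the 39 with 1 probe set may share. No paired analysis was possible because each group has 1 array, and no array could be left out of a comparison of 2 arrays. Leaving out each zone from the means, chosen after seeing the data, gave 6 to 9 members lower and 0 to 1 higher for PZ minus other MCC zones, and 1 to 7 lower and 0 to 1 higher for superficial minus deep. Signal over background is unknown, since only relative values were used.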

Other observations

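Among 50 further regulators, the 3 furthest from 0 between superficial and deep zones were the transcription factors Mycn, Mybl1 and E2f2. Mycn, a MYC family factor that drives proliferation of progenitor cells, stood at 3.11 in FZ and 2.23 in PZ, with 0.00 in MZ and −0.35 in HZ, against −0.62 in FCC, a superficial minus deep difference of 2.84. Mybl1, a MYB family factor, stood at 0.00 in FZ and 0.65 in PZ, with −1.61 in MZ and −1.91 in HZ, against 0.36 in FCC. Gadd45g, a stress-induced brake on the cycle, stood at 0.68 in FZ and 1.74 in PZ, with −0.03 in MZ and 0.00 in HZ, against −0.83 in FCC, and it was 1.53 higher in PZ than in the other MCC zones. E2f2, an activating E2F, ran the opposite way, at −0.03 in FZ and 0.00 in PZ, with 1.26 in MZ and 2.23 in HZ, against −1.39 in FCC. Of the 50, 3 were at least 1 higher and 4 at least 1 lower in the superficial zones, against 2.24% and 3.78% of all genes.

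Lin37, of the DREAM complex that binds CHR elements, stood at 0.02 in FZ and −2.45 in PZ, with 0.00 in MZ and −0.09 in HZ, against 0.34 in FCC. E2f6, a repressing E2F, and Cdk5 were also low in PZ, 1.28 and 1.37 below the other MCC zones. The probe sets shared by Rrm2 and Rrm2l1, which cannot be assigned to either, stood at 0.01 and −0.58 in PZ and at 0.38 and 0.86 in HZ, against −1.63 and −0.83 in FCC.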
